A study of Mus musculus with 6 samples.

Results

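The 10 genes listed here encode elastin, 3 fibulins, 3 lysyl oxidases, 2 microfibril-associated proteins and EMILIN-1, which together build and cross-link the elastic fibre. They were listed by function, with earlier results of these data known, as Eln, Fbln1, Fbln2, Fbln5, Lox, Loxl1, Loxl2, Mfap4, Mfap5 and Emilin1. Of the 10, 9 had at least 1 probe set of their own among the 12393 genes measured. Those 9 genes were covered by 15 probe sets, and for each gene the probe set that was brightest on average over the 6 arrays gave the main reading. The only probe set of Loxl2 was assigned by the platform annotation to Gm21451 as well, so Loxl2 was left out of every count. That shared probe set read 11.25 and 11.33 in stomach, 11.35 and 11.43 in intestine, with 10.88 and 11.05 in Barx1 intestine on the log2 scale, and it cannot be read as either gene.

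RNA was measured on 6 Affymetrix mouse 3′ arrays, 2 biological replicates in each of 3 groups of C57BL/6 embryos taken at E13.5. Stomach and intestine control cultures came from embryos carrying either Rosa26+/Barx1 or Bapx1+/Cre alone, which the labels call wild type. The third group, called Barx1 intestine here, came from embryos with both alleles (Rosa26+/Barx1;Bapx1+/Cre), in which Cre from the Bapx1 (Nkx3-2) locus switches on the homeodomain factor BARX1 in the gut. All tissues were digested with collagenase-dispase and trypsin to reduce the endoderm and were then cultured for 3 days with 20% serum, so each value is that of a mixed, cultured population enriched for mesenchyme. The labels do not say how many embryos entered a culture or which of the 2 control genotypes it had, and the p-values measure only the spread between the arrays. In bulk RNA of this kind, fewer cells of a type and less RNA per cell cannot be told apart.

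Elastic fibres consist of cross-linked elastin on a scaffold of fibrillin microfibrils, and they give recoil to hollow organs, where smooth muscle cells and fibroblasts are the main makers. Tropoelastin, the product of Eln, is carried to the microfibrils by fibulins such as fibulin-5. Lysyl oxidases, which need copper, then oxidise lysine side chains of elastin and of fibrillar collagens so that cross-links form. MFAP4, MFAP5 and EMILIN-1 sit at the microfibril or at its interface with elastin.

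For 4 of the listed genes, 6 promoter windows of a RefSeq table (GRCm38.p6) were used, and promoters of the other 6 genes were not analysed here. Of these 4 genes, Fbln5, Fbln2 and Emilin1 are shown because they had called differences between Barx1 intestine and another group. Lox, Loxl1 and Mfap4 had such differences too, but their promoters were not among those analysed. Each line gives the 250 bases before an annotated start, 5′ to 3′, and capitals mark TAAT or its complement ATTA, the core that many homeodomain proteins bind.
Fbln5 first listed start, chr12:101819120-101819369, minus strand: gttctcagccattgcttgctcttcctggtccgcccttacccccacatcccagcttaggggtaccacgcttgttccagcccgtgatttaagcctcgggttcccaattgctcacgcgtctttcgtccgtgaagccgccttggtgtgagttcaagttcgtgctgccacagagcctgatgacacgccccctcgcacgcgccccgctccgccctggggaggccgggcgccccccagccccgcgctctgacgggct
Fbln5 second listed start, chr12:101818485-101818734, minus strand: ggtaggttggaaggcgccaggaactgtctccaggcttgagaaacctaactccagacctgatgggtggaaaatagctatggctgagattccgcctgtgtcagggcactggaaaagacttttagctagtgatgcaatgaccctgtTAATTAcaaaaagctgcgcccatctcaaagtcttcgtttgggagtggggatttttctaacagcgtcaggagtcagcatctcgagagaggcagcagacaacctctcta
Fbln2, chr6:91212514-91212763, plus strand: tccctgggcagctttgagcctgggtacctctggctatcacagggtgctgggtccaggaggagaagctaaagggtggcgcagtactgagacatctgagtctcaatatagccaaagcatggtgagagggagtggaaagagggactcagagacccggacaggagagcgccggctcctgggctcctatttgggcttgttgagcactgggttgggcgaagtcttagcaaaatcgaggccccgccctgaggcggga
Emilin1, chr5:30913536-30913785, plus strand: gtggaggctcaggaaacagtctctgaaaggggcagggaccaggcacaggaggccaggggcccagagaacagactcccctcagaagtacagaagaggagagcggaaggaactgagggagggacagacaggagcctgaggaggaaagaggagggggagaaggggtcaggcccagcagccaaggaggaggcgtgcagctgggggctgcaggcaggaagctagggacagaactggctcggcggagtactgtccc
The core was found in 1 of these 4 windows, before the second Fbln5 start, as 2 overlapping matches on the opposite strands. It was found in neither of the 2 overlapping Fbln1 windows, which are not printed. Of all 32851 windows of this length 54.9% hold the core, so its presence or absence in a window is a description of the letters and not of binding. The box CAGAC (or GTCTG) bound by SMAD proteins had 2 matches before Emilin1, 2 before the second Fbln5 start and 2 in each Fbln1 window, against 42.2% of all windows with at least 1. None of the 6 windows of these 4 genes held TATAAA or its complement TTTATA, which 12.4% of all windows hold. The arrays do not separate transcripts of the different Fbln5 starts.

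The array medians lay between 6.93 and 6.98 and the lower quartiles between 4.72 and 4.76, and every main probe set of the listed genes read above those quartiles on all 6 arrays. Barx1 itself read 9.81 in stomach, 8.72 in Barx1 intestine and 5.03 in intestine, in the order of the labels. Smooth muscle markers were high in all groups, with the log2 of their summed level at 15.9 to 16.0 on every array. Of the endothelial markers, Pecam1, Cdh5, Tek, Tie1 and Vwf read below the lower quartile on all 6 arrays. Emcn did so on 2 arrays, and Kdr, Egfl7 and Esam on 0. Replicates of 1 group differed with an SD over genes of 0.149 (stomach), 0.232 (intestine) and 0.199 (Barx1 intestine).

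The control cultures were compared first, since they show how the elastic fibre genes differ between the regions. Of the 9 measured genes, 5 were higher in stomach than in intestine and 0 were lower (1 at an unadjusted p under 0.05, Mfap5). The higher genes were Mfap4, Fbln5, Loxl1, Eln and Lox. Over all genes 8.86% were called higher and 8.09% lower by the same limma fit at an adjusted p under 0.05. The median log2 difference of the 9 genes was 0.70, against 0.02 over all genes. Stomach and intestine arrays were fully separate for 8 of the 9 genes, against 64.1% of all genes.

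Eln, the gene of the elastic core, read 7.05 and 7.51 in stomach, 6.68 and 6.40 in intestine, with 6.25 and 6.45 in Barx1 intestine (replicates 1 and 2). Both stomach arrays were above the other 4, whose ranges overlapped. The stomach level was higher than that of the intestine by 0.74 (SE 0.18, 1.67-fold, adjusted p = 0.0458 by limma, n = 2 a group). This call was lost in all 6 fits that left out 1 array (adjusted p from 0.0581 to 0.170). The second Eln probe set was dimmer, at 5.26 to 5.62 on all arrays, and differed by 0.20 between stomach and intestine (adjusted p = 0.215 in the fit over all probe sets).

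Fbln5 encodes fibulin-5, which links tropoelastin to microfibrils and to cell surface integrins and is needed for elastic fibre formation in mice. It read 11.07 and 11.43 in stomach, 9.65 and 9.74 in intestine, with 10.35 and 10.57 in Barx1 intestine. The 3 groups were separate, with stomach highest, Barx1 intestine between and intestine lowest. Stomach was above intestine by 1.55 (SE 0.14, 2.94-fold, adjusted p = 0.00426), and the call held in all 6 fits without 1 array. Barx1 intestine stood 0.76 above intestine (95% interval 0.41 to 1.11, adjusted p = 0.0500086, just outside the threshold), and it was lower than stomach by 0.79 (difference -0.79, adjusted p = 0.0412).

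Fbln2 encodes fibulin-2, found in elastic fibres and basement membranes. Its values were 11.52 and 11.48 in stomach, 11.35 and 11.35 in intestine, with 10.80 and 10.69 in Barx1 intestine. Both Barx1 intestine arrays were below the other 4, and the order of the 3 groups differed from that of Fbln5. Fbln2 was lower in Barx1 intestine than in intestine by 0.60 (difference -0.60, SE 0.06, 1.52-fold, adjusted p = 0.0170). It was lower than in stomach too (difference -0.75, adjusted p = 0.0120). Stomach and intestine differed by 0.15 (95% interval -0.01 to 0.30, adjusted p = 0.177).

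Fbln1, the gene of fibulin-1, an elastic fibre and basement membrane protein, varied least among the 9 genes. It read 8.39 and 8.37 in stomach, 8.40 and 8.51 in intestine, with 8.31 and 8.62 in Barx1 intestine, so the Barx1 intestine arrays spanned those of the other groups. None of its 3 differences passed the test, and their 95% intervals lay between -0.35 and 0.36 on the log2 scale. The second Fbln1 probe set gave differences between -0.07 and 0.18, also without a call.

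**Figure D1:**
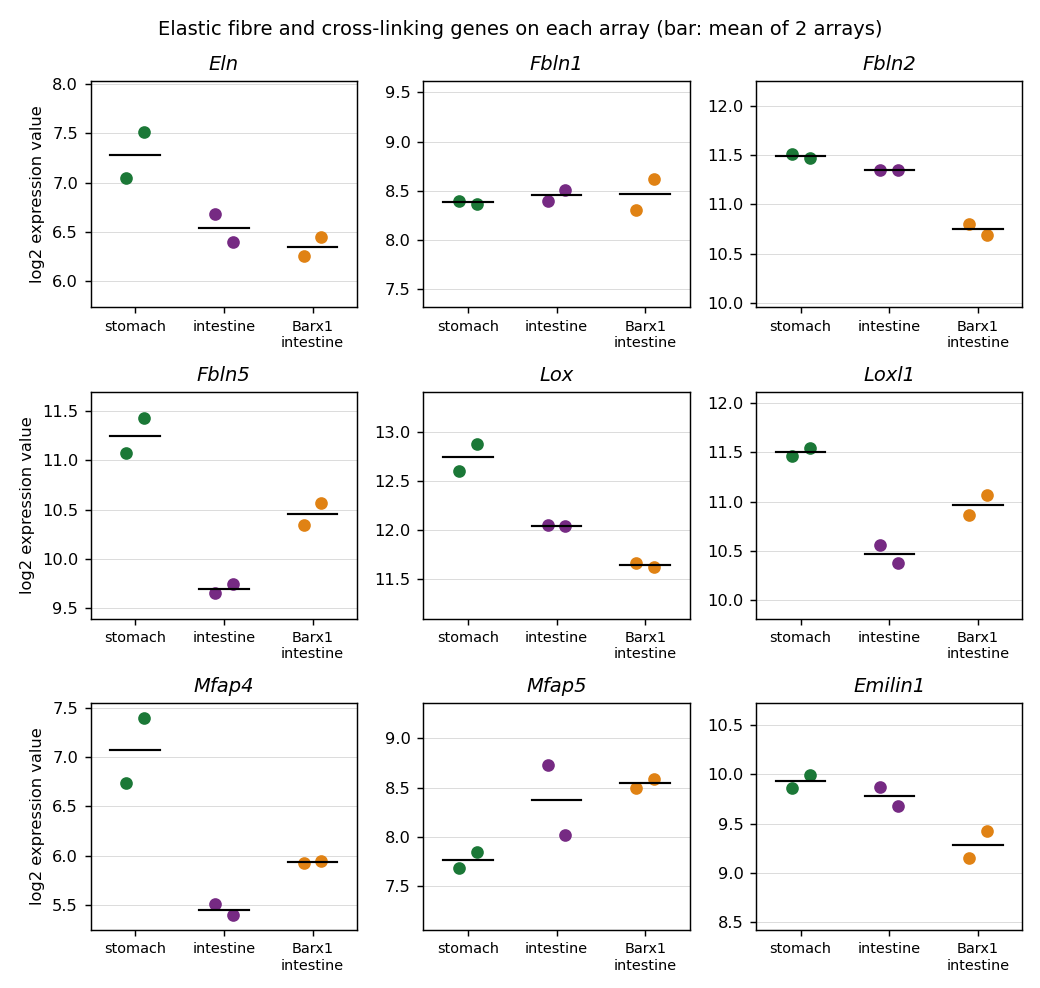
Log2 expression value of each measured gene on each array (points, 2 a group) with the group mean (bar), in 9 panels of equal log2 span. Fbln5, Loxl1 and Mfap4 stand highest in stomach and lowest in intestine, whereas Fbln2, Lox and Emilin1 stand lowest in Barx1 intestine.

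Mfap4 encodes a microfibril-associated glycoprotein that binds tropoelastin and fibrillin. It read 6.74 and 7.40 in stomach, 5.51 and 5.39 in intestine, with 5.93 and 5.94 in Barx1 intestine. The 3 groups did not overlap, and the 2 stomach arrays were 0.66 apart. Stomach was higher than intestine by 1.62 (SE 0.21, 3.07-fold, adjusted p = 0.00904), and the call held in all 6 fits without 1 array. It was the widest difference of group means among the 9 genes, but without stomach replicate 2 it was 1.29, below the 1.37 of Fbln5, and without intestine replicate 2 it was 1.56, below the 1.60 of Fbln5. Barx1 intestine was lower than stomach (difference -1.13, adjusted p = 0.0450), and its difference from intestine was 0.49 (95% interval -0.03 to 1.01, adjusted p = 0.233).

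Mfap5 encodes MAGP-2, a small microfibril protein that binds fibrillins. It read 7.68 and 7.84 in stomach, 8.73 and 8.02 in intestine, with 8.49 and 8.59 in Barx1 intestine. Here the stomach arrays were the 2 lowest, and the intestine replicates were 0.71 apart and spanned both Barx1 intestine arrays. Stomach minus intestine was -0.62 (SE 0.23, adjusted p = 0.122), and without intestine replicate 2 it was -0.97 (adjusted p = 0.0166). Barx1 intestine minus stomach was 0.78 (95% interval 0.22 to 1.34, adjusted p = 0.110), and without either intestine array its adjusted p was 0.0229. The second Mfap5 probe set gave -0.58 and 0.48 for the same differences.

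Emilin1 encodes an elastin microfibril interface protein that also binds the TGF-beta precursor. It read 9.86 and 10.00 in stomach, 9.87 and 9.68 in intestine, with 9.15 and 9.42 in Barx1 intestine. Both Barx1 intestine arrays were below the other 4, and stomach and intestine overlapped. Emilin1 was lower in Barx1 intestine than in stomach (difference -0.64, SE 0.12, 1.56-fold, adjusted p = 0.0466), and its difference from intestine was -0.49 (adjusted p = 0.0858). The call was lost in all 6 fits that left out 1 array (adjusted p from 0.0504 to 0.243). The second, dimmer Emilin1 probe set gave -0.18 and -0.22 for these differences, and the mean of both probe sets gave -0.41 against stomach (adjusted p = 0.0895).

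The cross-linking enzymes differed from each other in the order of the groups. Lox, the founding member of the lysyl oxidase family, read 12.60 and 12.88 in stomach, 12.05 and 12.04 in intestine, with 11.66 and 11.62 in Barx1 intestine. Stomach was highest and Barx1 intestine lowest, with no overlap between any 2 groups. Lox was higher in stomach than in intestine by 0.70 (SE 0.10, 1.62-fold, adjusted p = 0.0112), a call lost without stomach replicate 2 (difference 0.56, adjusted p = 0.0508). It was lower in Barx1 intestine than in stomach (difference -1.10, SE 0.10, 2.14-fold, adjusted p = 0.0123), and Barx1 intestine minus intestine was -0.40 (95% interval -0.64 to -0.15, adjusted p = 0.0862). A second Lox probe set gave 0.84, -1.33 and -0.48 for these 3 differences, while the third read 3.53 to 4.26, below the lower quartile on every array.

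Loxl1 encodes a lysyl oxidase that binds fibulin-5 and acts on elastin. It read 11.46 and 11.55 in stomach, 10.56 and 10.38 in intestine, with 10.87 and 11.07 in Barx1 intestine. As for Fbln5, the 3 groups were separate with Barx1 intestine between the controls. Loxl1 was higher in stomach than in intestine by 1.04 (SE 0.10, 2.05-fold, adjusted p = 0.00463), and the call held in all 6 fits without 1 array. Barx1 intestine minus intestine was 0.50 (95% interval 0.25 to 0.75, adjusted p = 0.0600), and Barx1 intestine was lower than stomach (difference -0.54, adjusted p = 0.0466).

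Barx1 intestine was next set against intestine, and these cultures can differ in their cell types as well as in BARX1. Fbln2 was the 1 gene of 9 that passed, with 0 higher and 1 lower by limma (2 and 3 at an unadjusted p under 0.05), against 1.86% of all genes called higher and 2.12% called lower. The median difference of the 9 genes was 0.01, against 0.02 over all genes, with a range from -0.60 for Fbln2 to 0.76 for Fbln5. The groups were separate for 6 of the 9 genes, against 52.4% of all genes. Fbln5, Loxl1 and Mfap4 stood higher in Barx1 intestine on both arrays, and Fbln2, Lox and Emilin1 lower. The Fbln2 call was lost in 5 of the 6 fits without 1 array (adjusted p from 0.0584 to 0.0660) and held without intestine replicate 1 (adjusted p = 0.0389). The Fbln5 difference lay at the threshold and passed in 7 of 11 other settings of the limma fit (adjusted p from 0.0206 to 0.0704). That of Loxl1 passed in 3 of 11 (adjusted p from 0.0237 to 0.133). For each of these genes only 1 probe set was measured, so the probe set and dim gene settings changed only the other genes. Of the 11 settings 1 was chosen after seeing the data, so they are not 11 independent checks. The 2 fits without a stomach array are the same fit.

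The third comparison asks how far the Barx1 intestine differs from the stomach. Of the 9 genes 6 were lower in Barx1 intestine and 0 were higher (7 and 1 at an unadjusted p under 0.05). Those called were Fbln2, Fbln5, Lox, Loxl1, Mfap4 and Emilin1, against 2.64% of all genes called lower and 2.56% called higher. The median difference was -0.75, against -0.00077 over all genes, and the groups were separate for 8 of 9 genes, against 58% of all genes. Eln stood just outside the threshold (difference -0.93, SE 0.18, adjusted p = 0.0502). Of the 6 fits without 1 array, Fbln2 and Lox passed in 3 each, Loxl1 in 2, Mfap4 in 1, and Fbln5 and Emilin1 in 0 (highest adjusted p 0.108, 0.0841, 0.243, 0.168, 0.181 and 0.243, in the order named). Their count was between 0 and 3 in these fits. Without stomach replicate 2 or Barx1 intestine replicate 1 it was 0, and over all genes the fits made 0 and 5 calls. The 3 comparisons share arrays, so their counts are not independent of each other. Of the 6 fits, the 2 without an array of the third group are the same fit in each comparison.

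**Figure D2:**
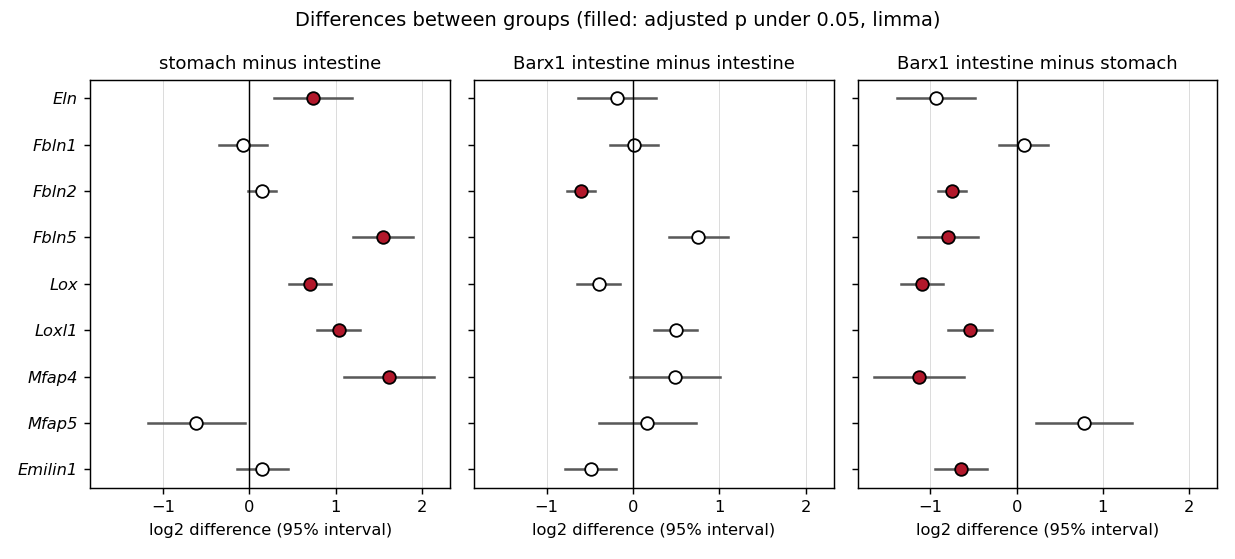
Log2 difference of each measured gene in the 3 comparisons (points) with its unadjusted 95% interval from the limma fit (lines), with filled points for an adjusted p under 0.05. In the left panel 5 genes are filled, all above 0, in the middle panel Fbln2 alone at -0.60, and in the right panel 6 genes, all below 0.

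Over the 6 arrays, the profiles of Fbln5, Loxl1 and Mfap4 followed each other closely, with Pearson's r of 0.98 for Fbln5 with Loxl1, 0.96 for Fbln5 with Mfap4 and 0.95 for Loxl1 with Mfap4. Eln followed Lox (r = 0.95), and Fbln2 followed Emilin1 (r = 0.90). Mfap5 ran against Lox (r = -0.80). These values describe 6 arrays that share 3 group means. Among the 1653 genes whose group means spanned at least 0.5, the 5 closest to Eln in their mean-centred values were Ryr3, Sec16b, Col11a1, Cdkn2c and Hmgcs1, with root mean square differences of 0.099 to 0.137. For Mfap4, the listed gene with the widest span of group means, they were Msmo1, Rspo2, Pdgfra, Fbln5 and Thbs3, at 0.151 to 0.194.

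Other proteins of the microfibril and of fibre assembly were compared in the same fit. Of the 18 measured, 4 were higher in stomach than in intestine and 2 were lower, against 8.86% and 8.09% of all genes, with a median of 0.24. The higher genes were Ltbp2 (0.75) and Ltbp3 (0.34), members of the latent TGF-beta binding protein family, Adamts10 (0.59), whose product associates with fibrillin microfibrils, and its relative Adamtsl5 (0.42), with adjusted p from 0.00651 to 0.0321. The lower genes were Loxl4 (-0.66, adjusted p = 0.0434), another lysyl oxidase, and Mfap3 (-0.26, adjusted p = 0.0416). Loxl4 thus stood on the opposite side from Lox and Loxl1, with 7.11 and 7.37 in stomach, 8.11 and 7.69 in intestine, with 7.38 and 7.49 in Barx1 intestine. In Barx1 intestine against intestine, Adamts10 was higher (0.47, adjusted p = 0.0308) and Npnt, the gene of the basement membrane protein nephronectin, was lower (-1.23, adjusted p = 0.0417). Against stomach, limma called 0 of the 18 (7 at an unadjusted p under 0.05, 2 higher and 5 lower), with a median of -0.12.

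A further list held genes of enzyme activation, copper supply and elastin breakdown. It also held metalloproteinase inhibitors such as Timp3, and others such as Plod1, Serpinh1, Tgm2 and Neu1. Of 25 measured, 2 were higher in stomach than in intestine and 4 were lower, with a median of -0.15, and the share called higher was near the 8.86% of all genes. Pcolce2 (0.97, adjusted p = 0.0124), an enhancer of procollagen processing, and Tll1 (0.55, adjusted p = 0.0301), a protease of the BMP1 family that also cleaves lysyl oxidase precursors, were higher. The 2 genes of copper supply that passed were lower, Atp7a (-0.48, adjusted p = 0.0133), the pump that loads secreted copper enzymes, and the chaperone gene Atox1 (-0.56, adjusted p = 0.0198). Neu1 (-0.62), a sialidase, and Mmp9 were lower too. Mmp9, a gelatinase that can cleave elastin and is also made by macrophages, read 6.82 and 6.51 in stomach, 9.88 and 9.32 in intestine, with 7.48 and 8.45 in Barx1 intestine. Its difference between stomach and intestine was -2.94 (SE 0.35, adjusted p = 0.00760).

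In Barx1 intestine against intestine, Tll1 (0.99, adjusted p = 0.0204) and Pcolce2 (0.98, adjusted p = 0.0308) were higher, and Timp3, an inhibitor of metalloproteinases, was lower (-0.77, adjusted p = 0.00703). Pcolce2 read 9.28 and 9.21 in Barx1 intestine, 9.32 and 9.15 in stomach, and 8.47 and 8.07 in intestine. Barx1 intestine and stomach overlapped for Pcolce2, and their difference was 0.01 (adjusted p = 0.970). Against stomach, Atp7a was higher (0.43, adjusted p = 0.0363) and Timp3 lower (-0.61, adjusted p = 0.0123), and the other 23 genes did not pass.

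TGF-beta induces elastin and lysyl oxidase genes in mesenchymal cells, and 13 of its ligands, receptors, mediators and targets were measured. Smad7, an inhibitor that TGF-beta induces, was the 1 gene past the threshold between stomach and intestine (-0.62, adjusted p = 0.00536). It read 9.77 and 9.74 in stomach, 10.39 and 10.35 in intestine, with 10.48 and 10.36 in Barx1 intestine, and it was higher in Barx1 intestine than in stomach (0.67, adjusted p = 0.0140). Tgfb2, a ligand gene, was lower in Barx1 intestine than in intestine (-0.67, adjusted p = 0.0352) and than in stomach (-0.71, adjusted p = 0.0268). Limma thus called 1 of the 13 lower in stomach than in intestine, near the 8.09% of all genes. In Barx1 intestine it called 1 lower than in intestine (2.12% of all genes), and 1 lower and 1 higher than in stomach (2.64% and 2.56%). At an unadjusted p under 0.05, 0 were higher and 2 lower in stomach than in intestine. In Barx1 intestine 2 were then higher and 5 lower than in intestine, and 1 higher and 2 lower than in stomach. The median of the 13 genes was -0.04 in each of the 3 comparisons.

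Fibrillar collagens are the other substrates of lysyl oxidases. Of 7 measured, 4 were higher in stomach than in intestine and 0 lower, Col1a2 (1.98, adjusted p = 0.00326), Col1a1 (0.72), Col3a1 (0.58) and the low Col2a1 (0.41), with a median of 0.57. In Barx1 intestine against intestine limma called 0 of 7 (1 higher and 3 lower at an unadjusted p under 0.05), with a median of -0.24. Against stomach 4 were lower, Col1a2 (-2.46, adjusted p = 0.00832), Col3a1 (-1.06), Col1a1 (-1.01) and Col5a1 (-0.65). Col1a2 read 14.23 and 14.32 in stomach, 12.13 and 12.47 in intestine, with 11.66 and 11.97 in Barx1 intestine, the same order as for Lox.

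**Figure D3:**
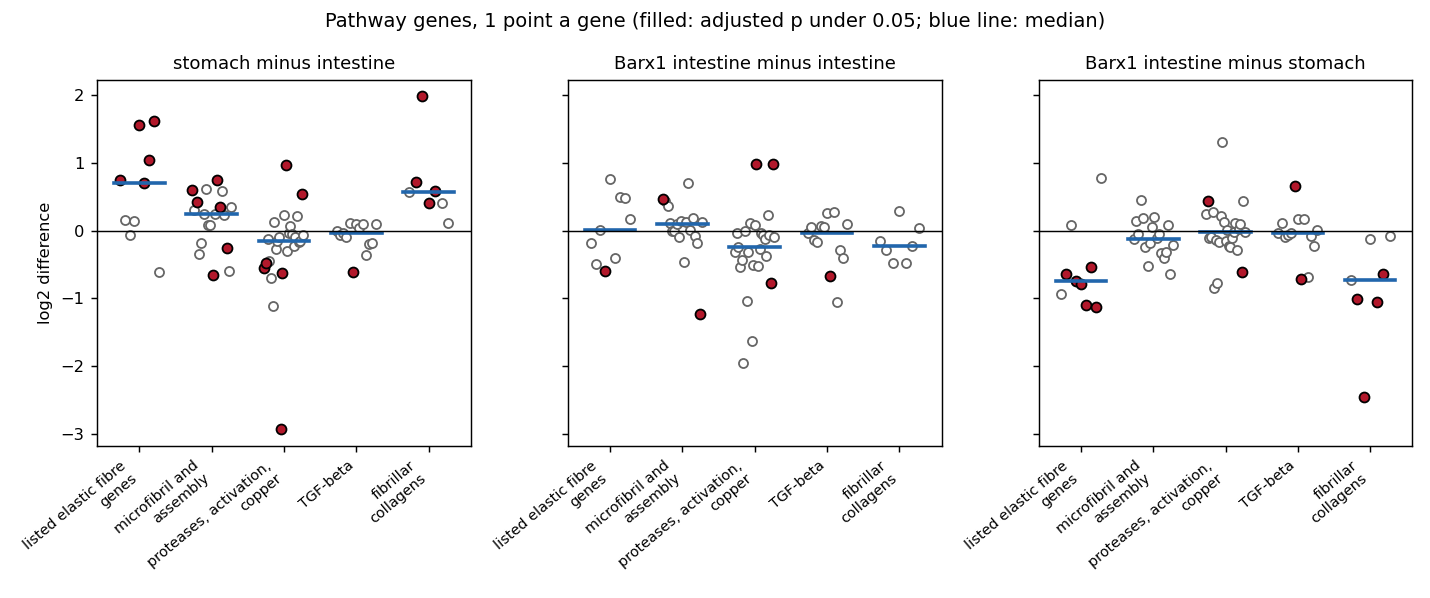
Log2 differences of the 9 measured elastic fibre genes and of 4 further gene lists in the 3 comparisons, 1 point a gene, filled where the adjusted p was under 0.05, with the list median as a blue line. The listed genes and the fibrillar collagens have medians of 0.70 and 0.57 in stomach against intestine and of -0.75 and -0.74 in Barx1 intestine against stomach.

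Markers of the cell types in the cultures differed between the groups too, and not all in the direction of the listed genes. Of 7 fibroblast markers 4 were higher in stomach than in intestine and 0 lower, Pdgfra (1.63), Thy1 (1.52), Col1a1 and Col3a1, and the same 4 were lower in Barx1 intestine than in stomach. Col1a1 and Col3a1 are also in the collagen list. Of the other markers, stomach minus intestine was -0.64 for Dcn and -0.28 for Foxf1, neither past the test (adjusted p = 0.208 and 0.0812), and Foxf1 stood 0.39 above stomach in Barx1 intestine (adjusted p = 0.0667). The log2 of their summed level was 14.98 to 15.05 in stomach, 14.68 to 14.69 in intestine and 14.5 to 14.6 in Barx1 intestine. For smooth muscle, 3 of 8 markers were higher in stomach than in intestine (Lmod1, Cnn1 and Smtn) and 1 was lower in Barx1 intestine than in stomach (Des, -1.16). Endoderm markers summed to 12.2 to 12.9 in stomach, 13.4 to 14.5 in intestine and 12.8 to 13.5 in Barx1 intestine, with 1 of 11, Foxa1, past the test in the control comparison.

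Leukocyte markers summed to 12.2 to 12.6 in stomach, 13.0 to 13.9 in intestine and 11.5 to 12.5 in Barx1 intestine, and 5 of 11 were lower in Barx1 intestine than in intestine. Enteric neural crest markers summed to 9.88 to 9.92, 10.5 to 10.9 and 8.98 to 9.15 in the same order. Of the 7, 3 were lower in stomach and 3 lower in Barx1 intestine than in intestine, and 2 were lower in Barx1 intestine than in stomach. Tubb3, Elavl4 and Ret stood the other way between the controls, at 0.69, 0.36 and 0.06 for stomach minus intestine, without a call. Endothelial markers summed to 8.76 to 8.81, 9.66 to 9.69 and 9.17 to 9.39. Of the 9, 3 were lower in stomach than in intestine (Kdr, Esam and Pecam1), against 8.09% of all genes. In Barx1 intestine 2 were lower than in intestine (Esam and Pecam1, against 2.12% of all genes). There 2 were higher than in stomach (Kdr and Emcn, against 2.56%). Pecam1 read below the lower quartile on all 6 arrays, so its calls rest on low signal. Mesothelial markers summed to 8.71 to 9.25, 9.42 to 10.5 and 9.08 to 9.63, and 1 of 4 was higher (Wt1) and 1 lower (Msln) in stomach than in intestine. The brightest of the 4 on every array was Krt19, at 7.62 to 10.3, which is also in the endoderm list. Cartilage and tendon markers summed to 8.72 to 8.80, 7.72 to 7.80 and 7.74 to 7.82, with Acan and Col2a1 of 5 higher in stomach than in intestine and Acan lower in Barx1 intestine than in stomach. The part of these cell types in the differences of the elastic fibre genes was not tested.

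**Figure D4:**
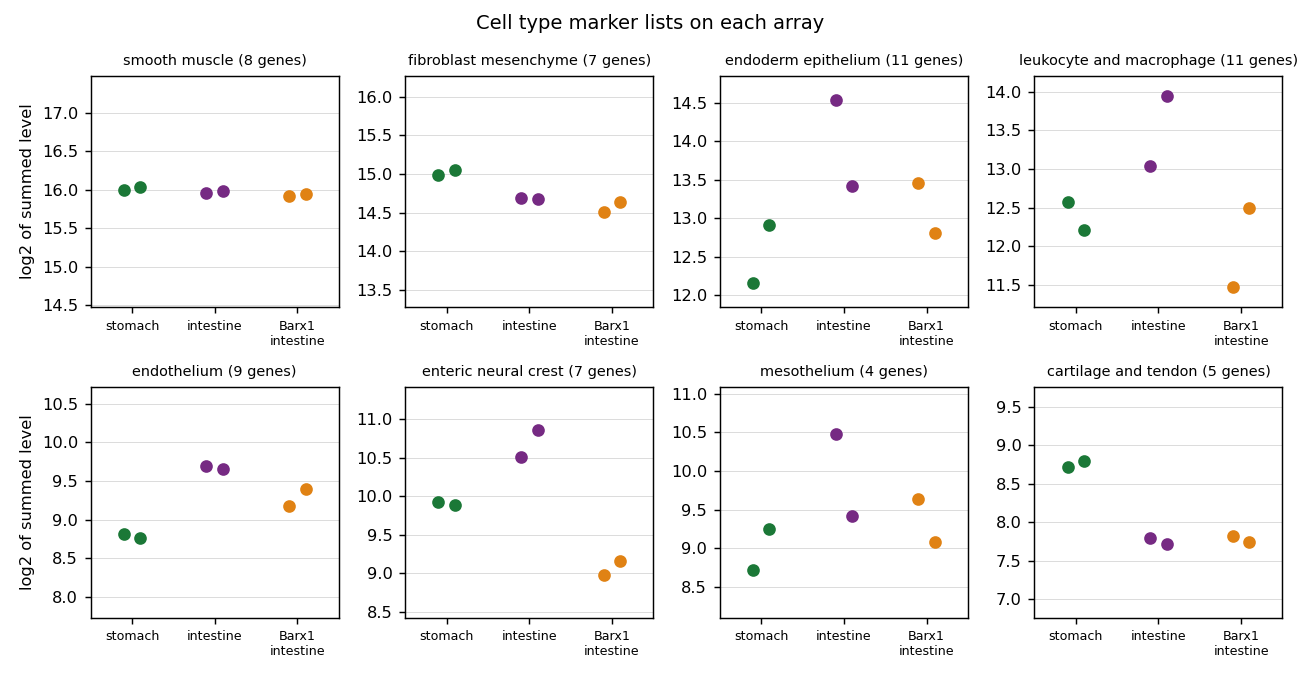
Log2 of the summed level of each marker list on each array, 2 points a group, in 8 panels of equal log2 span. Smooth muscle markers lie between 15.9 and 16.0 on all arrays, a sum set mainly by the brightest markers, such as Acta2 and Tagln. Fibroblast markers are highest in stomach, and leukocyte markers are highest in intestine.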

How the data were processed

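The authors deposited log2 expression values per probe set. RMA is named in the submitters' processing notes, without a version. RMA brings the arrays to a common distribution, so a shift shared by most genes would have been removed. The log2 scale was read from the values. The arrays number 6, which limits the precision, and depth has no counterpart.

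Probe sets were named from the platform annotation: 20380 of 22690 carried 1 gene, 691 several and 1555 none, with 64 controls. Of these, 20351 matched the RefSeq gene table. Each of 12393 genes was read from its brightest probe set on average. One fit of 3 group means with limma 3.58.1 (under R 4.3.3, files read by data.table, release 1.17.8) covered all genes, with 3 residual and 2.58 prior degrees of freedom and Benjamini-Hochberg adjustment within each comparison. Every adjusted p comes from it unless another fit is named. The fit was also run on data simulated from its own estimates of the spread, which checks the code and not the assumptions of the fit.

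The genes listed and the lists were chosen with earlier results of these data known. The text names all listed genes, list genes past the threshold (up to 6 a list) and the 5 genes closest in pattern to Eln and to the widest-ranging listed gene. Counts and medians stand in for tests of lists. Alternatives were other probe set choices, median centring, a further quantile normalization, dim genes left out, other variance models, fits of 2 groups, a replicate block, each array left out and other thresholds. The labels do not say whether replicate numbers pair the samples, and correlations of same-numbered arrays are given with the alternatives.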

Additional observations from a re-analysis of the deposited data

How the results depend on the processing

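With 2 arrays a group, most counts depend on every array. In each comparison, both fits without an array of the third group equal the fit with arrays of the 2 groups only. The fits and settings are thus not all separate checks. The call of Mfap4, Fbln5 and Loxl1 as higher in stomach than in intestine held in all 6 fits without 1 array and in all 11 other settings of the fit. With each difference of a single listed gene counted once for each alternative, 421 kept direction and side of the threshold, 62 lost a call, 26 gained one and 4 changed sign, none of these 4 with a call. Differences without a call in the main fit could not lose one, so the 62 are not to be read against the 421. At the thresholds of 0.01 and 0.10 the fit is unchanged, so calls could only be lost or only be gained. Low signal limits what the dimmest Eln and Lox probe sets can show. It may also limit the only Mfap4 probe set, which read 5.39 to 5.51 in intestine and 5.93 to 5.94 in Barx1 intestine, below the array medians. The cause of each change below was not tested.

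For the listed genes in Barx1 intestine against intestine, the count called higher was 1 (Fbln5) with the mean of all probe sets, with all probe sets tested together and with a second quantile normalization. It was 2 with dim genes left out, with arrays centred on their medians, with a variance trend and at an adjusted p under 0.10, where the count called lower was 3, as with the variance trend. That lower count was 0 with arrays of the 2 groups only and at an adjusted p under 0.01. Against stomach, the count called lower was 3, and 1 was higher (Mfap5), with the arrays of the 2 groups only, and it was 0 at an adjusted p under 0.01, where 3 genes were higher in stomach than in intestine.

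Over all genes, dim genes left out gave 998 calls in Barx1 intestine against stomach, and a variance trend gave 1189 there and 1037 against intestine, where arrays of the 2 groups only gave 50. At an adjusted p under 0.01 there were 512 calls in stomach against intestine, 40 in Barx1 intestine against intestine and 11 against stomach, and under 0.10 there were 3310, 1316 and 1516. Centring arrays on their medians turned the split of stomach against intestine from 1098 higher and 1002 lower into 1394 and 814, while the listed genes kept their directions.

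Without 1 array, the listed genes called in stomach against intestine ranged from 3 to 4 higher and 0 to 1 lower (281 to 1692 over all genes). In Barx1 intestine against intestine 0 to 1 were lower (50 to 466 over all genes), and against stomach 0 to 1 were higher and 0 to 3 lower (0 to 727 over all genes). A group left with 1 array was assumed to vary like the others. Uncalled differences that changed sign were those of Fbln1 against intestine (-0.15 to 0.17) and stomach (-0.073 to 0.24) and of Mfap5 against intestine (-0.19 to 0.52).

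The labels do not say whether the replicate numbers pair the samples. Deviations of same-numbered arrays correlated at -0.22 for stomach with intestine, -0.06 for stomach with Barx1 intestine and 0.20 for intestine with Barx1 intestine. Such weak values cannot decide whether there was a pairing. With the replicate block, 4 listed genes were higher in stomach than in intestine (1508 calls over all genes, 796 higher and 712 lower), 1 was higher and 1 lower in Barx1 intestine than in intestine (267 calls over all genes), and 3 were lower than in stomach (337 over all genes). Crossing the numbers of the stomach arrays, an alternative chosen after seeing the data, gave 3 lower than in stomach (383 over all genes).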
